A study of Mus musculus with 18 samples.

Results

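Selenocysteine tRNA, tRNA-SeC-TCA, was followed by Hydro-tRNA-seq in the hippocampus of WT mice and of 5xFAD mice, a transgenic model of Alzheimer's disease, with or without neuronal silencing of RTP801. Its members were the entries of the deposited tRNA table whose names start with tRNA-SeC-TCA, in the read classes of mature tRNA (whole, 5′, 3′ and other reads) and of precursor tRNA (whole precursor, partial precursor and trailer reads). This gave 7 of the 1857 entries of those classes, which belong to 1 of 213 mature tRNAs and 1 of 335 pre-tRNA loci. The study asked whether RTP801, a stress-induced protein, affects tRNA processing. All 18 mice were males, the WT animals of a B6SJL background, and received bilateral injections into the CA1 and the dentate gyrus at 6 months of age. WT shCT mice (n = 5) and 5xFAD shCT mice (n = 3) were given rAAV2/8-H1-shControl-RSV-GFP, whereas WT shRTP801 mice (n = 4) and 5xFAD shRTP801 mice (n = 6) were given rAAV2/8-H1-shRTP801-RSV-GFP. Every group therefore carried a neuron-targeted virus that expressed a hairpin RNA from the H1 promoter together with GFP, and hippocampi were collected 4 weeks later. Each library came from 1 mouse and from RNA of 60 to 100 nucleotides, so the mRNA targeted by the hairpin was not analysed here. The tissue is a mixture of cell types, and fewer cells of a type cannot be told apart from less RNA per cell.

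Selenocysteine tRNA reads the UGA codon as selenocysteine in mRNAs that carry a SECIS element in their 3′ untranslated region. It is charged with serine by seryl-tRNA synthetase, and the kinase PSTK and the synthase SEPSECS then convert the serine into selenocysteine, after which the elongation factor EEFSEC takes it to the ribosome. Selenoproteins such as glutathione peroxidase 4 protect neurons from lipid peroxidation, and parvalbumin interneurons are lost when neurons cannot make selenoproteins. The gene is also unusual among tRNA genes. Most are transcribed by RNA polymerase III from promoter elements inside the gene, but the selenocysteine tRNA gene relies on an external promoter with a TATA box, as do the genes of 7SK RNA, Y RNAs and the RNA subunits of RNase P and RNase MRP. Its transcript starts at the first base of the mature tRNA, so no 5′ leader has to be removed and processing concerns the 3′ trailer. The tRNA is longer than the others and has a long variable arm, a feature shared with serine and leucine tRNAs.

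The libraries held 18126375 to 34488923 reads, of which 9850676 to 20292469 were mature nuclear-encoded tRNA reads and 47875 to 318628 were precursor reads. The tRNA-Arg-TCT-4 entry, a brain-enriched arginine tRNA, had reads in 18 of 18 libraries, the 3 Mir124 genes in 17 and the 2 Snord116 genes in 15. The library of 1 mouse in each of 3 groups stood apart. In WT shCT mouse 5, WT shRTP801 mouse 4 and 5xFAD shRTP801 mouse 7, mature tRNAs took 98.0 to 98.7% of the reads and mitochondrial tRNAs 0.00315 to 0.435%, against 31.9 to 85.8% and 8.59 to 39.8% in the 15 other libraries. Results were therefore also computed without these 3 mice, an alternative chosen after the data were seen. No 5xFAD shCT library was of this kind, and mitochondrial tRNAs made up 33.5% ± 5.69 of the reads of 5xFAD shCT mice (SD, n = 3), 27.2% ± 18 in WT shRTP801 mice (n = 4), 16.7% ± 12.4 in WT shCT mice (n = 5) and 15.0% ± 10.9 in 5xFAD shRTP801 mice (n = 6).

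The precursor of selenocysteine tRNA had its highest group mean in 5xFAD shCT mice and its lowest in WT shCT mice, but the groups overlapped and the first place rested on 1 library. Without WT shRTP801 mouse 4, which had under 1% mitochondrial tRNA reads, the mean of WT shRTP801 mice was 0.440% ± 0.189 (SD, n = 3), level with that of 5xFAD shCT mice. Its level is given as a percentage of all precursor tRNA reads of the library. In 5xFAD shCT mice it was 0.551% in mouse 1, 0.482% in mouse 16 and 0.282% in mouse 18, from 334, 245 and 194 reads. In WT shCT mice it was 0.425% in mouse 6, 0.188% in mouse 15, 0.0328% in mouse 3, 0.00536% in mouse 11 and 0.00306% in mouse 5. WT shCT mouse 6 lay inside the range of the 5xFAD shCT mice and the other WT shCT mice lay below it. The lowest values rested on few reads, with 7 reads each in WT shCT mouse 5 (95% Wilson interval 0.00148 to 0.00633%) and WT shCT mouse 11 (0.00259 to 0.0111%), where the intervals cover counting error only. After silencing in WT mice, the level was 0.60% in mouse 10, 0.489% in mouse 17, 0.231% in mouse 21 and 0.00334% in mouse 4, so that mouse 4 stood far below the other WT shRTP801 mice. The 5xFAD shRTP801 mice ranged from 0.00345% in mouse 7 to 0.329% in mouse 19, with a median of 0.103%. Mouse 19 was the only 5xFAD shRTP801 mouse above the lowest 5xFAD shCT mouse. However, 5xFAD shRTP801 mouse 8, at 0.280% (95% Wilson interval 0.242 to 0.325%), was level with that mouse within counting error.

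**Figure D1:**
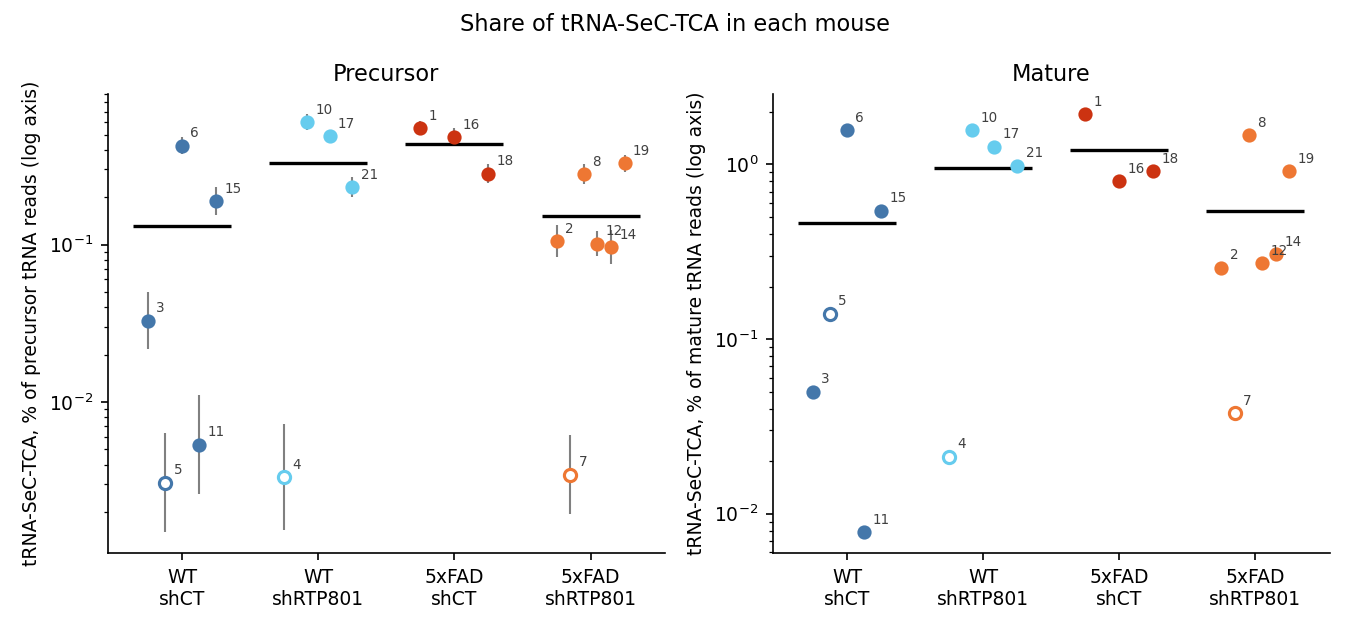
Reads of tRNA-SeC-TCA as a percentage of precursor tRNA reads (left) and of mature tRNA reads (right), on log axes, for each of the 18 mice by group. Each point is a mouse with its number, open points are the 3 libraries with under 1% mitochondrial tRNA reads, black lines are group means and grey bars (left) are 95% Wilson intervals. Within a group the shares span up to 180-fold for precursors and 200-fold for mature tRNA, and the 5xFAD shCT mice lie closest together, within 1.96-fold and 2.42-fold.

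Group means of the precursor share were 0.438% ± 0.140 in 5xFAD shCT mice (SD, n = 3), 0.331% ± 0.267 in WT shRTP801 mice (n = 4), 0.153% ± 0.125 in 5xFAD shRTP801 mice (n = 6) and 0.131% ± 0.181 in WT shCT mice (n = 5). The mean of 5xFAD shCT mice was above that of WT shCT mice by 1.74 on the log2 scale (two-sided exact permutation test, p = 0.0536, where 0.0179 is the smallest p this design allows). Silencing of RTP801 in 5xFAD mice went with a lower precursor share, by -1.52 on the log2 scale (exact p = 0.0238). That p was 0.167 after Benjamini-Hochberg adjustment over the 35 exact tests of tRNA-SeC-TCA, and 0 of these 35 tests had an adjusted p under 0.05. Silencing in WT mice went the other way, with a log2 ratio of 1.34 that did not pass the exact test (p = 0.190). The 5xFAD shRTP801 mice were at -1.12 against the WT shRTP801 mice (exact p = 0.190), and the interaction of genotype and treatment had an exact p of 0.117. The interaction was computed on differences of mean log2 shares, which were -2.34 for silencing in 5xFAD mice and 1.87 in WT mice and differed by -4.21, so it is not the difference of the ratios of means above. The neighbours in the order of group means, 5xFAD shCT and WT shRTP801, WT shRTP801 and 5xFAD shRTP801, and 5xFAD shRTP801 and WT shCT, all overlapped.

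The contrasts of the precursor share depended on single mice. With WT shCT mouse 6 left out, 5xFAD shCT mice exceeded WT shCT mice by 2.93 on the log2 scale (exact p = 0.0286), and without WT shRTP801 mouse 4 the interaction was -5.94 (exact p = 0.0176). Without the 3 libraries with under 1% mitochondrial tRNA reads, the difference on silencing in 5xFAD mice was -1.26 (exact p = 0.0536) and the interaction was -4.16 (exact p = 0.0214). As a fraction of all reads of the library rather than of precursor reads, silencing in 5xFAD mice gave a log2 ratio of -0.93 (exact p = 0.119).

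The group means of mature selenocysteine tRNA had the same order as those of its precursor. With all mice included, no contrast passed the exact permutation test at 0.05 in these small groups. Here too the order depended on WT shRTP801 mouse 4, without which the WT shRTP801 mean was 1.27% ± 0.296 (SD, n = 3), above the 1.22% of 5xFAD shCT mice. In percent of mature tRNA reads it reached 1.94% in 5xFAD shCT mouse 1, 0.912% in mouse 18 and 0.800% in mouse 16. WT shCT mice spanned almost the entire range of the study, with 1.57% in mouse 6, 0.543% in mouse 15, 0.140% in mouse 5, 0.0499% in mouse 3 and 0.00783% in mouse 11. The reads behind these values ran from 1342 in WT shCT mouse 11 to 272940 in 5xFAD shCT mouse 1, so counting error was small beside the differences between mice. In WT shRTP801 mice it was 1.57% in mouse 10, 1.27% in mouse 17, 0.982% in mouse 21 and 0.0212% in mouse 4. In 5xFAD shRTP801 mice the lowest value was 0.0378% (mouse 7), the median 0.289% and the highest 1.47% (mouse 8). Among all mature families, tRNA-SeC-TCA ranked from 12 in WT shRTP801 mouse 10 to 46 in WT shRTP801 mouse 4, out of 50.

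The mean mature share was 1.22% ± 0.625 in 5xFAD shCT mice (SD, n = 3), 0.961% ± 0.671 in WT shRTP801 mice (n = 4), 0.542% ± 0.540 in 5xFAD shRTP801 mice (n = 6) and 0.461% ± 0.653 in WT shCT mice (n = 5). The log2 ratios were 1.40 for 5xFAD shCT against WT shCT mice (exact permutation test, p = 0.143), -1.17 for silencing in 5xFAD mice (exact p = 0.155) and 1.06 for silencing in WT mice (exact p = 0.270). For 5xFAD shRTP801 against WT shRTP801 mice the log2 ratio was -0.83 (exact p = 0.319). On mean log2 shares, as used for the interaction, silencing gave -1.81 in 5xFAD mice and 1.73 in WT mice, a difference of -3.54 (exact p = 0.126). Leaving out WT shCT mouse 6 alone gave 2.71 for 5xFAD shCT against WT shCT mice (exact p = 0.0286), and leaving out WT shRTP801 mouse 4 gave an interaction of -5.01 (exact p = 0.0251).

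Set beside the other tRNA families in 1 model over the 18 mice, selenocysteine tRNA had some of the largest group differences and also some of the largest errors. For 5xFAD shCT against WT shCT mice, its precursor had the highest log2 change of the 48 families tested, 3.51 (SE 1.74), where the median family was at -0.02, and it did not pass limma's test with Benjamini-Hochberg adjustment over all families (adjusted p = 0.312). Its mature form had the highest log2 change of 49 families, 3.0 (SE 1.59, limma adjusted p = 0.501), against a median of 0.23. On silencing in 5xFAD mice it was at the bottom of both classes, with -2.28 (SE 1.68, limma adjusted p = 0.568) for the precursor and -1.80 (SE 1.54, limma adjusted p = 0.949) for the mature tRNA. The precursor of Leu-CAA was nearly level with it in both contrasts. It stood at 3.43 (SE 1.48) for 5xFAD shCT against WT shCT mice and at -2.28 (SE 1.43) on silencing in 5xFAD mice. On silencing in WT mice the precursor of tRNA-SeC-TCA was at 1.82 (SE 1.6, limma adjusted p = 0.542) and its mature form at 1.70 (SE 1.46, limma adjusted p = 0.768). These limma values are differences of mean log2 shares and so weigh the mice with very low shares more than the ratios of means above. Of all families, 0% were called in either class in any of the 5 contrasts at an adjusted p under 0.05. At an unadjusted p under 0.05 limma gave 6 precursor families and 2 mature families for 5xFAD shCT against WT shCT mice, and edgeR on the recovered reads, which called 0 after adjustment, gave 5 and 4. The precursor of tRNA-SeC-TCA was not among them (unadjusted p = 0.0599 in limma and 0.194 in edgeR). Neither was its mature form (0.0774 in limma and 0.311 in edgeR). Without the 3 libraries with under 1% mitochondrial tRNA reads, limma gave this contrast unadjusted p = 0.0255 for the precursor (adjusted p = 0.252). It was 0.0395 for the mature form (adjusted p = 0.521). On silencing in WT mice that fit gave unadjusted p = 0.0277 (precursor) and 0.0316 (mature), with adjusted p = 0.169 and 0.194. On deposited normalized counts, limma gave 5xFAD shCT against WT shCT mice unadjusted p = 0.0319 (precursor) and 0.0961 (mature). With the share of reads on mature tRNAs as a covariate, the precursor of 5xFAD shCT mice stood above that of WT shCT mice by 1.35 (SE 1.04) and that on silencing in 5xFAD mice -0.26 (SE 1.0).

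**Figure D2:**
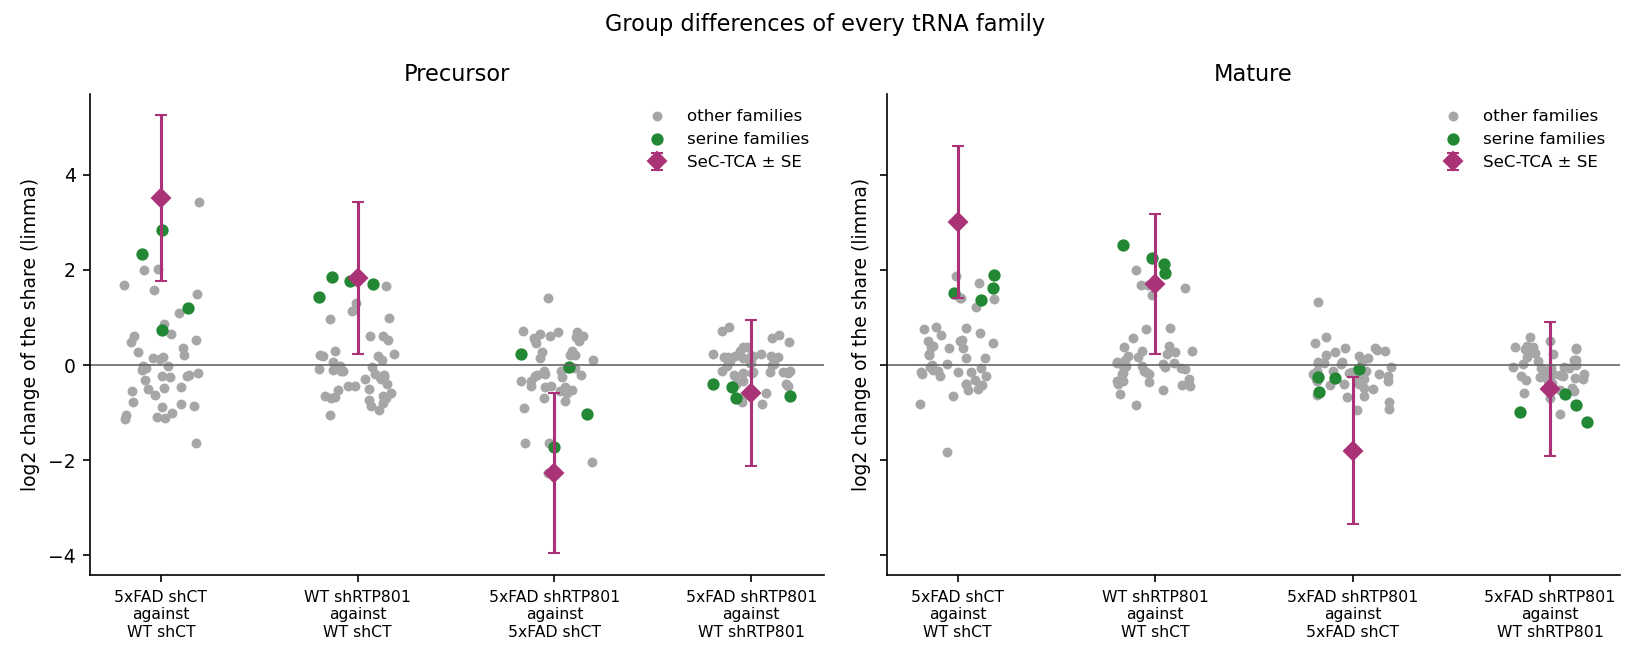
Log2 change of the share of every tRNA family from the limma model, for precursors (left, 48 families) and mature tRNA (right, 49 families), in the 4 contrasts between groups. The diamond with its bar is tRNA-SeC-TCA with its SE, green points are the 4 serine families and grey points all others. At 3.51 for precursors and 3.0 for mature tRNA, tRNA-SeC-TCA is the highest point for 5xFAD shCT against WT shCT mice.

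The serine tRNAs, charged by the same synthetase, were compared as a list. For 5xFAD shCT against WT shCT mice 4 of the 4 serine families had a precursor change above 0, from 0.74 in Ser-TGA to 2.84 in Ser-GCT, and 4 of 4 had a mature change above 0, from 1.36 in Ser-TGA to 1.89 in Ser-CGA. None of these 4 passed limma's test after adjustment (lowest adjusted p = 0.312 for precursors and 0.501 for mature tRNA), and their medians were 1.77 and 1.56. On silencing in WT mice the mature serine families stood between 1.94 (Ser-GCT) and 2.51 (Ser-CGA), above the 1.70 of tRNA-SeC-TCA, with a lowest limma adjusted p of 0.228. Precursors of the serine families ran from 1.44 in Ser-TGA to 1.86 in Ser-CGA there, beside 1.82 for tRNA-SeC-TCA (lowest limma adjusted p 0.388). On silencing in 5xFAD mice their mature changes ran from -0.57 in Ser-CGA to -0.08 in Ser-TGA, beside -1.80 for tRNA-SeC-TCA. Their precursor changes in this contrast were -1.72 in Ser-GCT, -1.03 in Ser-AGA, -0.04 in Ser-CGA and 0.23 in Ser-TGA, beside -2.28 for tRNA-SeC-TCA (lowest limma adjusted p among the serine families 0.568). Differences between families were not tested.

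Other RNAs made from an external RNA polymerase III promoter were measured in the same libraries. These were the Y RNA genes Rny1 and Rny3, the 7SK RNA gene Rn7sk, Rpph1 and Rmrp, each as a percentage of all reads. For 5xFAD shCT against WT shCT mice 5 of 5 had a log2 change above 0, with 3.10 for Rny3, 3.07 for Rn7sk, 2.99 for Rny1, 1.98 for Rmrp and 1.0 for Rpph1. The median of the 5 was 2.99, but the median of all 831 small RNA genes tested was also above 0, at 1.17, and 0% of them were called (limma, lowest adjusted p in the list 0.451). At an unadjusted p under 0.05, limma gave 46 of the 831 genes. On silencing in 5xFAD mice 5 of 5 were below 0, from -2.59 in Rn7sk to -0.78 in Rpph1, with an overall median of -0.84 (lowest limma adjusted p in the list 0.617). Most of these RNAs are longer than the RNA selected from the gel.

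Selenocysteine tRNA was the family that varied most between libraries. The SD of its log2 share over the 18 libraries was 2.36 for mature tRNA and 2.63 for precursors, the highest of 49 and of 48 families, where the median family had 0.58 and 0.81. Its highest share exceeded its lowest by 247-fold for mature tRNA and by 196-fold for precursors. By this measure the Ser-GCT precursor spanned more, 267-fold, and for the Ser-AGA precursor no such ratio could be formed. The runners-up by SD were Gln-CTG for mature tRNA, with 1.77, and Leu-CAA for precursors, with 2.30. The 9 leucine and serine families, which share its long variable arm and were singled out after their values were seen, had a median SD of 1.38 for mature tRNA and 1.39 for precursors. The other families had medians of 0.50 and 0.66. Of the 10 most variable families 6 were leucine or serine families in the mature class and 7 in the precursor class. Over all 18 libraries, precursor reads of the leucine and serine families ran from 179 in Ser-AGA to 7392 in Leu-AAG, with 645 in Ser-GCT. The precursor spread of families with few reads includes counting error, which was not separated. A link between spread and the variable arm was not tested.

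**Figure D3:**
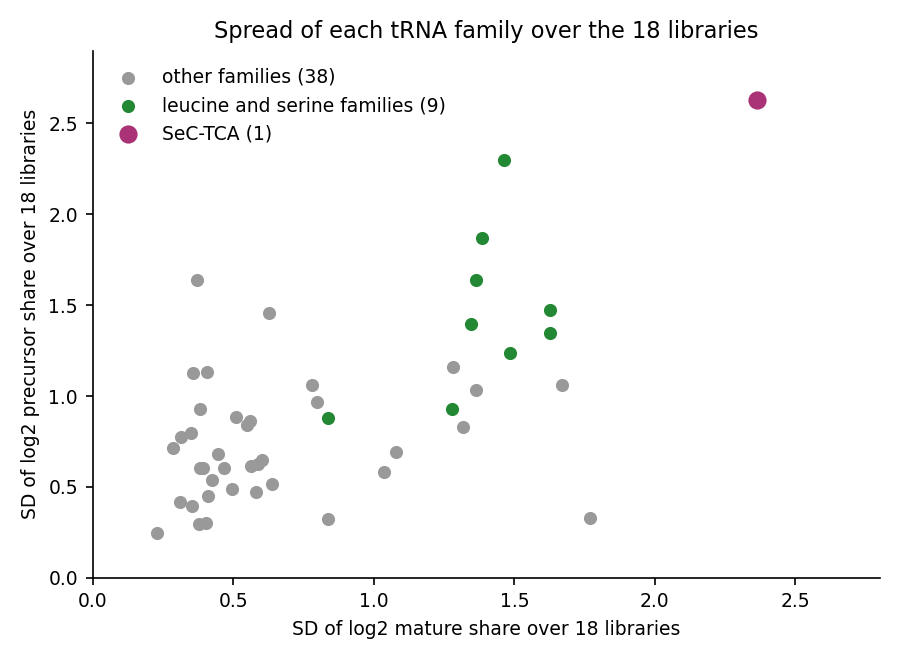
Standard deviation (SD) of the log2 share of each tRNA family over the 18 libraries, for mature tRNA (horizontal axis) and precursors (vertical axis), with 1 point per family. The tRNA-SeC-TCA point, at 2.36 and 2.63, lies at the upper right end of both axes, and the leucine and serine families (green) lie mostly above the other families (grey).

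The families whose mature share ranked the 18 libraries most like tRNA-SeC-TCA were Val-TAC (Spearman's rho 0.85), Leu-CAA (0.84) and Leu-TAA (0.83). For precursors they were Lys-TTT (0.79), Asp-GTC (0.76) and Ile-TAT (0.76). These correlations describe 18 libraries in which all families share the depth and composition of each library.

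Precursor and mature selenocysteine tRNA went up and down together, and their balance did not separate the groups. Over the 18 mice the log2 shares had Pearson's r = 0.91 and Spearman's rho = 0.90 (permutation tests, p = 1e-05 for both, the smallest that 100000 resamples can give, adjusted p = 2e-05 for r over 4 sets of mice). Leaving out the 2 mice with shares farthest from the median gave r = 0.88, and leaving out the 3 libraries with under 1% mitochondrial tRNA reads gave r = 0.98. In the 6 5xFAD shRTP801 mice, the largest group, r was 0.95 and rho 0.71 (permutation p = 0.0175 and 0.135). Both shares come from the same library and rest on its composition. Among 48 families tRNA-SeC-TCA ranked 3 for the rho between its precursor and mature shares, and the median family had 0.60.

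Precursor reads were rare beside mature reads, with a median of 1.86 per 1000 mature reads of the same tRNA, which placed the family at rank 37 of 48 from the highest. WT shRTP801 mice had 2.35 in mouse 17, 1.96 in mouse 10, 1.78 in mouse 21 and 1.59 in mouse 4. The 5xFAD shCT mice had 2.37 in mouse 16, 1.98 in mouse 18 and 1.22 in mouse 1, and the 5xFAD shRTP801 mice ran from 0.814 (mouse 8) to 2.02 (mouse 12) around a median of 1.76. The ranges of these 3 groups overlapped. WT shCT mice were more scattered, with 5.22 in mouse 11, 2.34 in mouse 3, 1.54 in mouse 15, 0.981 in mouse 6 and 0.255 in mouse 5. The extremes came from the 2 WT shCT mice with 7 precursor reads, with 95% Poisson intervals of 2.10 to 10.7 and 0.103 to 0.526. In the 3 libraries with under 1% mitochondrial tRNA reads the median family had 11.3 to 15.0 precursor reads per 1000 mature reads against 2.76 to 8.18 elsewhere, while tRNA-SeC-TCA had 0.255 to 1.59 there.

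**Figure D4:**
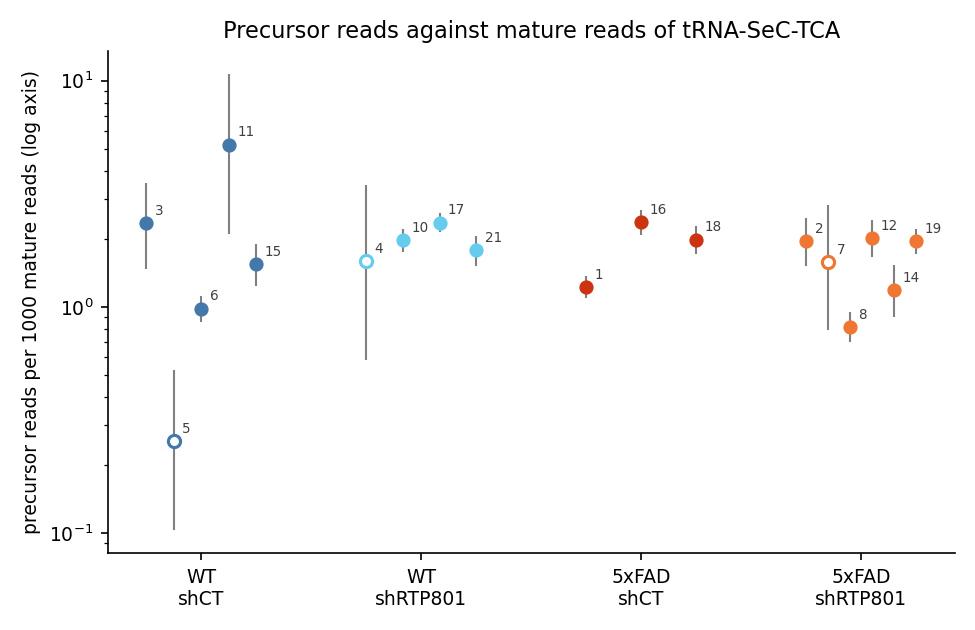
Precursor reads of tRNA-SeC-TCA per 1000 of its mature reads (log axis) in each of the 18 mice by group, with 95% Poisson intervals of the precursor count as grey bars. Open points are the 3 libraries with under 1% mitochondrial tRNA reads. Values lie between 0.814 and 2.37 except in WT shCT mouse 5 (0.255) and WT shCT mouse 11 (5.22).

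The log2 ratio of precursor to mature reads differed by 0.39 between 5xFAD shCT and WT shCT mice, by -0.25 on silencing in 5xFAD mice, by 0.48 on silencing in WT mice and by -0.34 between 5xFAD shRTP801 and WT shRTP801 mice. None of these passed an exact permutation test (p = 0.714, 0.50, 0.635 and 0.281), and the interaction of -0.73 had an exact p of 0.460. Both differences from WT shCT mice changed sign without WT shCT mouse 5, to -0.21 and -0.12. In limma over 48 families the changes of tRNA-SeC-TCA ran from -0.35 to 0.46 in the contrasts between groups and 0% of families were called.

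All 2704 precursor reads of tRNA-SeC-TCA in the 18 libraries were partial precursor reads, which extend beyond an end of the mature tRNA without covering the full precursor. There were 0 whole precursor reads and 0 trailer reads, which allows a share of up to 0.111% for each. Over all other families 0.262% of 1788369 precursor reads were whole precursors and 0.0250% were trailers. Such reads were lacking in many families, since 18 of 48 had no whole precursor read and 21 had no trailer read. The antisense entry of the locus, which is no member, held 0 reads in the 18 libraries.

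Most mature reads of selenocysteine tRNA ended at its 3′ end. In the classes used here, 3′ reads reach the 3′ end alone, 5′ reads the 5′ end alone, whole reads both ends and other reads neither. The 3′ class made up 78.8% (WT shCT mouse 11) to 97.5% (WT shCT mouse 5) of the mature reads, with a median of 92.4%. Other reads took 1.79 to 19.7%, 5′ reads 0.304 to 2.45% and whole reads 0.00365 to 1.77%. By its median of 1.09%, tRNA-SeC-TCA ranked 5 of 50 families in whole reads. By the same measure it ranked 19 in 5′ reads and 29 in 3′ reads, so other families had higher 3′ shares. Since RNA was hydrolysed before sequencing, these classes describe library fragments and not RNAs of the tissue.

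The 5′ class was the readout in which the groups separated best. It made up 1.35% in mouse 4, 1.42% in mouse 21, 2.0% in mouse 10 and 2.45% in mouse 17 of the WT shRTP801 group. In WT shCT mice it was 0.456% in mouse 6, 0.553% in mouse 3, 0.686% in mouse 5, 0.689% in mouse 15 and 1.12% in mouse 11. Every WT shRTP801 mouse was thus above every WT shCT mouse, but the closest values rested on few 5′ reads. WT shCT mouse 11 had 15 among 1342 mature reads and WT shRTP801 mouse 4 had 51 among 3770. Counting error was not taken into account in this comparison. The means of WT shRTP801 and WT shCT mice were 1.80% ± 0.519 (SD, n = 4) and 0.700% ± 0.253 (n = 5), a log2 ratio of 1.37 (two-sided exact permutation test, p = 0.00794, the smallest this design allows, adjusted p = 0.111). Of 49 mature families 1 (2.04%) was higher without overlap in this contrast, and it was tRNA-SeC-TCA. The 5xFAD shRTP801 mice, from 0.304% in mouse 8 to 1.32% in mouse 19 with a median of 1.13%, all lay below the WT shRTP801 mice, with a log2 ratio of -0.95 (exact p = 0.00952, adjusted p = 0.111). In that contrast 2 of 49 families (4.08%) were lower without overlap, and the gap was narrow, since 5xFAD shRTP801 mouse 19 at 1.32% was next to WT shRTP801 mouse 4 at 1.35%. The 5xFAD shCT mice, at 0.580% in mouse 1, 1.90% in mouse 18 and 2.11% in mouse 16, overlapped with the WT shCT and 5xFAD shRTP801 mice (exact p = 0.0714 and 0.226).

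The silencing effect on 5′ reads differed between genotypes by -1.70 percentage points, from a difference of 1.10 points in WT mice to one of -0.59 points in 5xFAD mice (exact permutation of treatment within genotype, p = 0.00444, adjusted p = 0.111). Without the 3 libraries with under 1% mitochondrial tRNA reads the difference was -1.92 points (exact p = 0.00663), and the log2 ratio of WT shRTP801 to WT shCT mice was 1.47 (exact p = 0.0286). On the odds scale over all families, limma gave 1.40 (SE 0.52, adjusted p = 0.262) for silencing in WT mice, where the median family was at 0.39, and -2.11 (SE 0.76, adjusted p = 0.251) for the interaction, where the median was at -0.72. On silencing in WT mice the 4 serine families were below 0, from -2.91 in Ser-TGA to -0.79 in Ser-CGA (lowest limma adjusted p 0.262). Their 5′ reads were few, with the highest median share, 0.0258% of mature reads, in Ser-GCT. Unadjusted p-values of limma under 0.05 were found in 3 of 49 families (6.12%) for silencing in WT mice, 5 (10.2%) for 5xFAD shRTP801 against WT shRTP801 mice and 9 (18.4%) for the interaction, each time with tRNA-SeC-TCA among them, and 0% were called after adjustment.

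**Figure D5:**
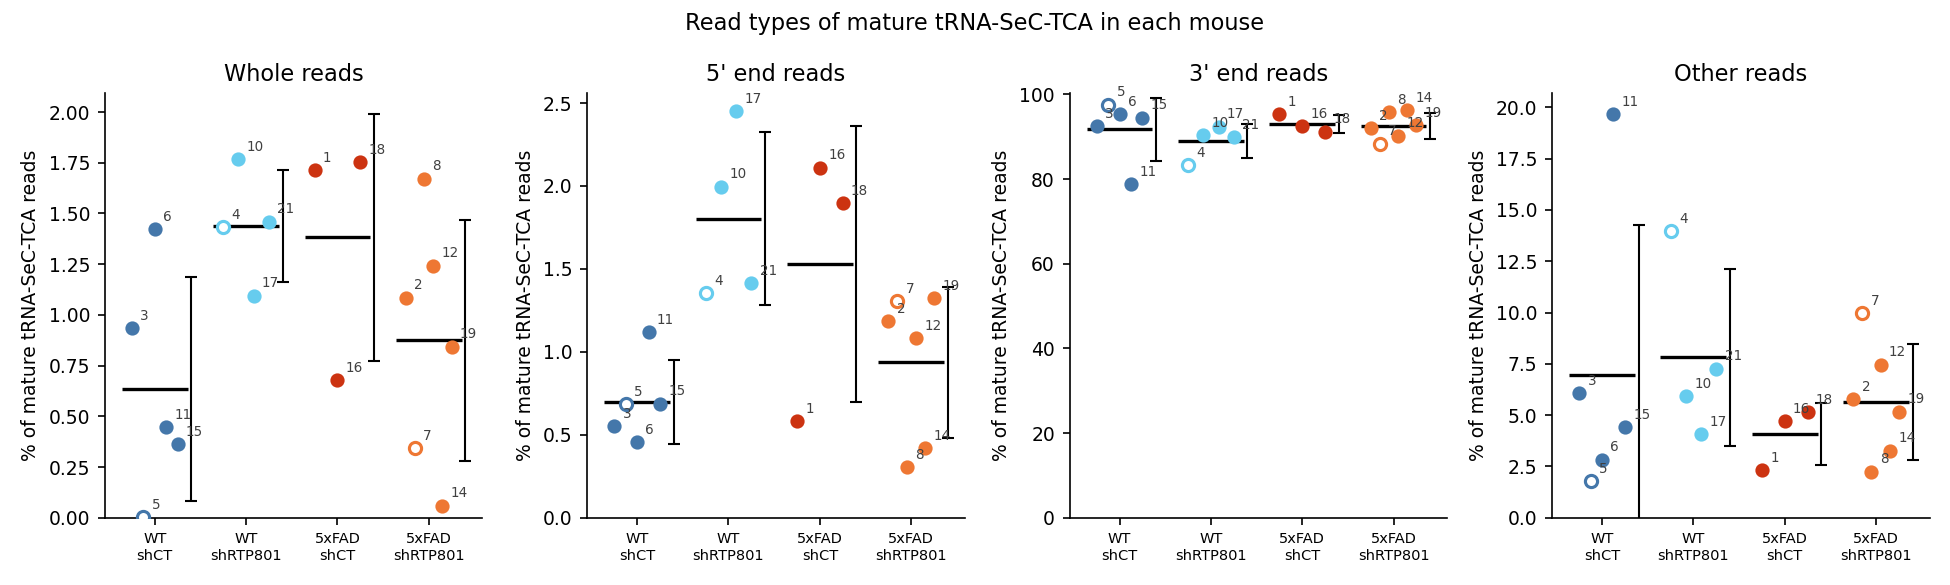
Whole, 5′, 3′ and other reads as a percentage of the mature reads of tRNA-SeC-TCA in each of the 18 mice by group, on linear axes from 0. Lines are group means with the SD as bars beside them (the bar of WT shCT mice for other reads is cut at 0), and open points are the 3 libraries with under 1% mitochondrial tRNA reads. For 5′ reads the 4 WT shRTP801 mice, from 1.35 to 2.45%, lie above all WT shCT and all 5xFAD shRTP801 mice.

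Whole reads had a similar order of groups with more overlap. They were 1.09% to 1.77% in WT shRTP801 mice, 0.00365% to 1.42% in WT shCT mice, 0.678% to 1.75% in 5xFAD shCT mice and 0.0593% to 1.67% in 5xFAD shRTP801 mice. The log2 ratio of WT shRTP801 to WT shCT mice was 1.18 (exact p = 0.0317, adjusted p = 0.185), and WT shCT mouse 6 reached into the WT shRTP801 range. This exact p was above 0.05 in 7 of the 9 fits that left out a mouse, and reached 0.0714. The silencing effects differed between genotypes by -1.31 percentage points (exact p = 0.0229, adjusted p = 0.167). For 3′ and other reads no contrast passed with all mice included, with exact p-values from 0.152 to 0.893. Without WT shCT mouse 11, the 3′ reads of WT shRTP801 against WT shCT mice had a log2 ratio of -0.094 (exact p = 0.0286). Over all families limma called 0% in the whole, 3′ and other classes, and the limma adjusted p of tRNA-SeC-TCA was 0.557 or more in the whole class.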

How the data were processed

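RNA of 18 hippocampal samples (1 library per mouse) was size-selected, hydrolysed and sequenced by the authors, who ran tRAX to count reads per mature tRNA, pre-tRNA locus, read class and other small RNA gene. The submitters' processing notes name build mm39. The tRAX version and the aligner are not given in the sources used here. The deposited values are a signal, counts divided by a size factor per library. Dividing each library by its step of 1 read gave whole reads (within 0.01 read) for 100% of the values, and these reads were used. Of 1482 other small RNA genes, 324 near-identical copies (within 5%) were left out of totals. Groups came from the labels. Members and lists were chosen with earlier results of these data known. Named were tRNA-SeC-TCA, the serine families, 5 genes with an external promoter and the 3 most similar families per class. Differences of group means were tested by exact permutation (two-sided). Families were fitted with limma 3.58.1 (R 4.3.3) on log2(percentage + 0.001%), families with a mean of at least 0.001%, or on log2 ratios and odds with 0.5 read added (read classes: a mean of at least 100 reads), adjusted by Benjamini-Hochberg (threshold 0.05). Fits were tested on simulated data. Alternatives were other pseudocounts, filters, denominators and scales, edgeR 4.0.16, DESeq2 1.42.0, a covariate and leaving out each mouse. Intervals cover counting error only. No sequence of this tRNA was in the tables used, and none is printed.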

Additional observations from a re-analysis of the deposited data

Results flagged for a closer look

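In WT shCT mouse 11 the read classes of mature tRNA-SeC-TCA stood apart from its group. Its 3′ reads made up 78.8% of the mature reads against 92.5 to 97.5% in the other WT shCT mice, and its other reads 19.7% against 1.79 to 6.06%. In both cases the gap to the nearest mouse was a large part of the range of the group (Dixon's ratio 0.730 and 0.761, critical value 0.71 for 5 mice). This library had the fewest mature tRNA-SeC-TCA reads, 1342, and the 95% Wilson interval of its 3′ share was 76.5 to 80.9%. Chance flags about 1 in 20 groups, and 21 groups of values were examined.

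The effect of silencing differed between WT and 5xFAD mice for 5′ reads, by -1.70 percentage points (exact p = 0.00444, adjusted p = 0.111), and for whole reads, by -1.31 percentage points (exact p = 0.0229, adjusted p = 0.167). Both were singled out by the unadjusted p of the interaction, and neither passed the adjustment over 35 tests.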

How the results depend on the processing

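No paired analysis was possible because mouse numbers were not shared between groups. Group differences below are on the log2 scale, and interactions in percentage points for read classes. For 5xFAD shRTP801 against 5xFAD shCT mice the precursor share gave -0.93 as a percentage of all reads (exact p = 0.119), -1.15 in deposited normalized counts (exact p = 0.0595), -2.34 on log2 percentages (exact p = 0.143) and -1.26 without the 3 libraries with under 1% mitochondrial tRNA reads (exact p = 0.0536), where its interaction was -4.16. Leaving out each mouse gave -1.90 to -1.26 for it (p above 0.05 without 5xFAD shCT mice 1 or 16 or 5xFAD shRTP801 mice 2, 7, 12 or 14), 1.43 to 2.93 for 5xFAD shCT against WT shCT mice (past 0.05 without WT shCT mouse 6 or 5xFAD shCT mouse 18), 0.88 to 2.53 for silencing in WT mice, -1.53 to -0.66 for 5xFAD shRTP801 against WT shRTP801 mice and -5.94 to -3.29 for the interaction (both past 0.05 without WT shRTP801 mouse 4). For the mature share the ranges were 0.89 to 2.71 for 5xFAD shCT against WT shCT mice (past 0.05 without WT shCT mouse 6), -1.77 to -0.66 for silencing in 5xFAD mice, 0.71 to 2.37 for silencing in WT mice, -1.43 to -0.48 for 5xFAD shRTP801 against WT shRTP801 mice and -5.01 to -2.51 for the interaction (past 0.05 without WT shRTP801 mouse 4).

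The precursor-to-mature ratio changed sign on mean ratios for 5xFAD shCT against WT shCT mice (-0.15) and WT shRTP801 against WT shCT mice (-0.10), and without the 3 libraries (-0.21 and -0.038, limma -0.24 and -0.071). Leaving out each mouse gave -0.21 to 0.88 and -0.12 to 0.96 (limma -0.24 to 0.84 and -0.13 to 0.96), negative without WT shCT mouse 5.

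Whole reads of WT shRTP801 against WT shCT mice gave 2.44 as log-odds and 0.86 without the 3 libraries, and their interaction -3.56 and -1.05, none past 0.05. Leave-one-out ranges were 0.80 to 1.66 for 5xFAD shCT against WT shCT mice (lowest exact p = 0.0476, without 5xFAD shCT mouse 16), 0.86 to 1.72 for WT shRTP801 against WT shCT mice (p above 0.05 in 7 of 9), -1.01 to -0.47 for 5xFAD shRTP801 against WT shRTP801 mice (lowest exact p = 0.0397, without 5xFAD shRTP801 mouse 8) and -1.66 to -1.13 for the interaction (p above 0.05 without 5xFAD shCT mouse 1 or 18). For 5′ reads, 5xFAD shRTP801 against WT shRTP801 mice gave -1.12 as log-odds (exact p = 0.0619) and -1.07 to -0.76 on leaving out each mouse (p = 0.0833 without WT shRTP801 mouse 17), and 5xFAD shCT against WT shCT mice 0.82 to 1.52 (lowest exact p = 0.0476, without 5xFAD shCT mouse 1).

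The 3′ reads changed sign under some alternative in every comparison except 5xFAD shRTP801 against WT shRTP801 mice (0.027 to 0.076 on leaving out each mouse). As a percentage of 5′ and 3′ reads alone, 5xFAD shCT against WT shCT mice gave -0.012 (log-odds -0.061), silencing in 5xFAD mice 0.0090, silencing in WT mice -0.017, 5xFAD shRTP801 against WT shRTP801 mice 0.014 and the interaction 1.81, the last 3 past 0.05, where by construction they mirror the 5′ reads. Without the 3 libraries the 3′ reads gave 0.0053 for silencing in 5xFAD mice, 0.0095 for silencing in WT mice and -0.25 for the interaction, and other reads -0.52 for silencing in WT mice. The interaction of other reads was -0.13 as log-odds. Leave-one-out ranges were -0.029 to 0.044, -0.022 to 0.011 and -0.094 to -0.014 for 3′ reads (5xFAD shCT against WT shCT, silencing in 5xFAD and in WT mice), and -1.02 to 0.10, -0.27 to 1.05 and -2.45 to 2.79 for other reads (5xFAD shCT against WT shCT, silencing in WT mice, interaction). Of these, only the 3′ reads on silencing in WT mice went past 0.05, without WT shCT mouse 11 (exact p = 0.0286).

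Families called by limma stayed at 0 except as follows. DESeq2 called 1 mature family for WT shRTP801 against WT shCT mice. Without the 3 libraries, limma called 1 family for the interaction of 5′ reads, 3, 3 and 7 families for 3′ reads and 3, 3 and 3 for other reads (silencing in 5xFAD mice, 5xFAD shRTP801 against WT shRTP801, interaction). Leaving out each mouse gave 0 to 2 precursor families for 5xFAD shCT against WT shCT mice and 0 to 1 families for 5′ reads (silencing in WT mice, 5xFAD shRTP801 against WT shRTP801, interaction). The limma change of tRNA-SeC-TCA for 5xFAD shRTP801 against WT shRTP801 mice was 0.20 (precursor) and 0.0096 (mature) with the share of mature reads as a covariate, and -2.23 to 0.27 and -1.96 to 0.11 on leaving out each mouse. The causes were not tested.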
